A study of Mus musculus with 30 samples.

Results

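Olfr902, Olfr906, Olfr917 and Olfr958 are odorant receptor (OR) genes of the Olfr7 cluster on mouse chromosome 9. They were chosen by their readings in mice that lack the cluster: although the genes are deleted there, their NanoString probes still counted above the negative controls. These 4 genes are among 37 deleted genes with counts on the same cartridge, and among 564 OR genes of the whole table. Since the genes were selected on the readings of the mutant mice, every value from the comparison of mutant with wild type on that cartridge is given as a description, without a test.

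The data are NanoString counts from the whole olfactory mucosa of 30 mice aged 21 days, with 1 mouse and 1 µg of total RNA per lane. Cartridge MK38 held 6 ΔOlfr7Δ mice (homozygous, 129SvEv inbred, 2 females and 4 males) and 6 wild-type mice (129S6/SvEvTac, 4 females and 2 males), called 129 wild type here. Cartridge MK29 held 6 ΔHxΔP mice, which are double homozygous for deletions of the P and the H element (the cross is labelled ΔP (Berry) x ΔH; 1 female and 5 males), and 6 wild-type mice of their companion strain (3 females and 3 males). Cartridge MK37 gave 6 wild-type mice of the companion strain of ΔH (4 females and 2 males). The 18 mice of MK29 and MK37 were in a mixed C57BL/6J x 129SvEv background and, like the 129 wild type, keep the Olfr7 cluster. The H and P elements are regulatory sequences of OR clusters other than the Olfr7 cluster. The summed OR counts of a lane ranged from 618163 to 1013430. On MK38 the ΔOlfr7Δ mice, in lanes 7 to 12, had 833993 to 1013430 (median 939028). The 129 wild type, in lanes 1 to 6, had 618163 to 855414 (median 757374). Genotype and lane position cannot be told apart there, and depth differed between the genotypes. The genes of the olfactory transduction pathway that served as reference (Adcy3, Ano2, Cnga2, Gnal) and Omp, the marker of mature olfactory sensory neurons, had at least 5112 raw counts in every lane, and markers of other cell types were not analysed here. In RNA of whole tissue, fewer neurons that express a receptor and less RNA per neuron cannot be told apart.

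An OR is a seven-transmembrane receptor in the cilia of olfactory sensory neurons. Each mature neuron transcribes a single OR gene from a single allele. The RNA of an OR in the whole mucosa depends on how many neurons chose that gene and on the RNA in each. OR genes lie in clusters, and genes of 1 family, which share a MOR family number, can be nearly identical in sequence. This matters for an assay that counts by hybridization: each RNA is bound by a capture probe, which holds it to the surface, and by a reporter probe, whose colour barcode is counted. A count needs both probes on the same molecule. Olfr902 belongs to the MOR169 family, Olfr906 to MOR167, Olfr917 to MOR168 and Olfr958 to MOR224. In RefSeq (GRCm38.p6), which held all 37 symbols, they are the 8th, 10th, 15th and 23rd of the 37 genes along the chromosome, so no pair of them was adjacent among the measured genes.

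The probes are shown as deposited, because a reading without the gene raises the question of what the probes resemble. Capitals mark the longest run of letters that each probe shares with any of the 1046 probes of the 523 genes that remain in the mutant (518 OR genes and the 5 reference genes). Olfr982 is shown with them, since its mean in the mutant lay above that of Olfr902.
Olfr902 capture probe: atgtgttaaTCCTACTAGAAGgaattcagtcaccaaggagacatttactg
Olfr902 reporter probe: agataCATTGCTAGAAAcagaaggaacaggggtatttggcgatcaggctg
Olfr906 capture probe: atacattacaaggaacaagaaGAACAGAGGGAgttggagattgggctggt
Olfr906 reporter probe: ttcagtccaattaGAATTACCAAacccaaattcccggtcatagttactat
Olfr958 capture probe: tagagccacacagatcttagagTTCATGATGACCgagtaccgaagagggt
Olfr958 reporter probe: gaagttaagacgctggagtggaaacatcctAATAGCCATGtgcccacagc
Olfr982 capture probe: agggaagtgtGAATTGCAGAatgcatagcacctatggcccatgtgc
Olfr982 reporter probe: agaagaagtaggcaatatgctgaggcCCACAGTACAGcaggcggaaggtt

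The longest such run was 11 to 12 letters (median 12) in the capture probes of the 4 genes. In their reporter probes it was 10 to 12 letters (median 10). In the other 33 deleted genes it was 10 to 20 letters (median 11) for capture probes and 9 to 15 letters (median 11) for reporter probes. The longest, 20 letters, was in the capture probe of Olfr894, whose mean in the mutant was 22.1 scaled counts. By this measure the 4 genes lay inside the range of the others. Of the deleted genes, 13 shared a longer run with a probe of a remaining gene than any of the 4 did. In an ungapped comparison over at least 30 letters, the capture probe of Olfr917 matched that of Olfr1259 at 35 of 49 letters, the best match of the 4 genes, while the capture probe of Olfr916 matched that of Olfr1499 at 37 of 50. Reporter and capture probe of the same gene were complementary over at most 4 to 5 letters in the 4 genes and 4 to 7 letters in the others. The GC content of the 4 capture probes was 36.0 to 48.0% against 38.0 to 57.1% in the others, and the median of the reporter probes was 43.0% against 44.0%. The probes of the 4 genes shared little with each other, except that the reporter probe of Olfr902 matched the capture probe of Olfr906 at 36 of 48 letters. Only the probes of the table were compared, which cover a short stretch of each gene. Likeness to the rest of the RNA of the remaining genes was not examined. Hybridization to their RNA or to RNA of genes without a probe was not tested.

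Among the deleted genes, Olfr916 is the measured neighbour of Olfr917 and its mate in the MOR168 family, and the probes of both lie on the same stretch of sequence. The letters in capitals are those that differ within the overlap.
Olfr917 capture probe: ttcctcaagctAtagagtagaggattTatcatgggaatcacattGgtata
Olfr916 capture probe: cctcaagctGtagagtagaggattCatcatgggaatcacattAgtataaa
Olfr917 reporter probe: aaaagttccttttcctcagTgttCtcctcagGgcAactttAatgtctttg
Olfr916 reporter probe: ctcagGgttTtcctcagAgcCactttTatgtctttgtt
The capture probes agree at 45 of 48 letters and the reporter probes at 31 of 36, and the reporter probe of Olfr916 is 38 letters long against 50 for Olfr917. In spite of this their readings in the mutant differed.

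The residual readings were compared within cartridge MK38 on scaled counts, that is raw counts set to the same level of 6 positive controls and then of the 5 reference genes in its 12 lanes. A lane's background is the mean plus 2 SD of its 8 negative controls, and was 35.0 to 48.8 scaled counts in ΔOlfr7Δ lanes. All 4 genes were above it in 6 of 6 mutant mice, which is what they were chosen for. Over all deleted genes, 6 of 37 (16.2%) were above it in every mutant mouse. All 518 OR genes outside the cluster (100%) were.

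Olfr906 had the highest reading of all 37 deleted genes. The 6 mutant mice read from 94.2 to 121 scaled counts, with a mean of 112 ± 9.29 (SD, n = 6), and the 6 wild-type mice from 261 to 348, with a mean of 314 ± 39.9 (SD, n = 6). The raw counts in the mutants were 131, 127, 123, 89, 128 and 138. Mouse 4 was the lowest, and no mutant overlapped with a wild-type mouse. The probes kept 35.6% ± 2.96 (SD over 6 mutants) of the wild-type mean.

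Olfr917 kept the largest share of its wild-type level, 42.9% ± 4.23 (SD over 6 mutants). Its mutant values were 83.7, 83.5, 87.0, 88.9, 73.0 and 69.1 scaled counts and its wild-type values 172, 195, 225, 179, 205 and 155. The groups did not overlap, and the lowest wild type was 1.75 times the highest mutant. Its mate Olfr916 had almost the same wild-type level, 182 ± 22.5 against 189 ± 24.9 scaled counts (SD, n = 6 each). In the mutants Olfr916 read 24.2, 28.7, 22.0, 22.2, 15.1 and 14.0 scaled counts, below the lane background in 6 of 6 mice. The lowest mutant value of Olfr917 was 69.1, so the readings of these similar probes did not overlap in the absence of both genes.

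Olfr902 read 78.6, 80.9, 80.3, 80.5, 69.4 and 76.1 scaled counts in the mutants, a mean of 77.6 ± 4.40 (SD, n = 6). The spread was small: the square root of the mean, only a rough guide to counting error since the counts are scaled, is 8.81. The SD lay below this root for Olfr906 (9.29 against 10.6), Olfr917 (7.98 against 8.99) and Olfr958 (8.67 against 9.53) as well. In wild type Olfr902 read 211, 232, 229, 258, 230 and 192, so that 34.4% ± 1.95 of the wild-type mean remained. Its measured deleted neighbours on either side, Olfr901 and Olfr905, had means of 41.1 and 20.4 in the mutants. Olfr901 was above background in 3 of 6 mice and Olfr905 in none. The measured neighbours of the other genes, Olfr907 beside Olfr906, Olfr921 beside Olfr917, and Olfr957 and Olfr959 beside Olfr958, had mutant means of 18.2, 19.6, 20.1 and 28.7 scaled counts and were above background in no mutant.

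Olfr958 differed from Olfr902, Olfr906 and Olfr917 in its wild-type level. It read from 1197 to 1409 scaled counts in wild type, a mean of 1322 ± 84.3 (SD, n = 6), and ranked 30th from the lowest of the 37 deleted genes. Olfr917, Olfr902 and Olfr906 ranked 2nd, 4th and 6th. In the mutants Olfr958 read 90.6, 91.3, 88.0, 98.5, 101 and 76.1, a mean of 90.9 ± 8.67. This is 6.87% ± 0.656 of the wild-type mean, so a residual reading of a size like theirs was a much smaller share. The other 7 measured MOR224 genes of the cluster had mutant means of 14.5 to 30.5 scaled counts and none was above background in any mutant. The probes of Olfr958 matched those of Olfr149 best in this family, at 33 of 49 letters for capture and 31 of 49 for reporter.

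**Figure D1:**
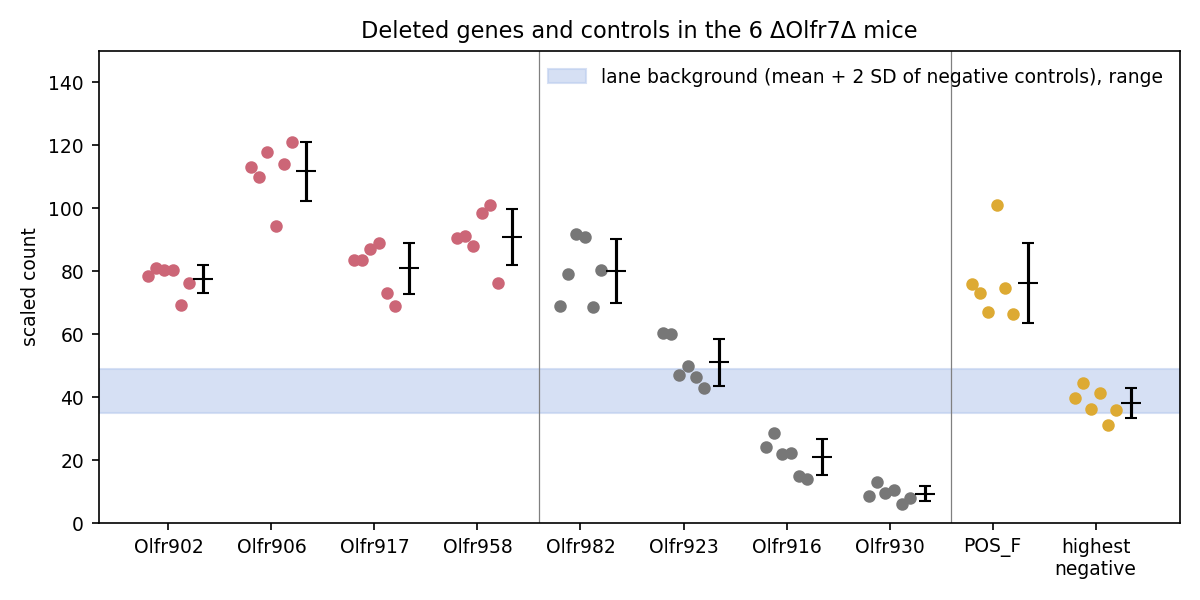
Scaled counts of deleted genes and controls in each of the 6 ΔOlfr7Δ mice (vertical axis, linear). Points are mice, the bar at the right of each set is mean ± SD, and the shaded band is the range of the lane backgrounds (35.0 to 48.8). The 4 genes (left panel) and Olfr982 sit above the band in every mouse, Olfr906 higher than the mean of the weakest positive control, POS_F, and the others around it, while Olfr916 and Olfr930 sit below it.

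The 4 genes and the other deleted genes did not separate cleanly by value. Of the 4 genes, Olfr902 had the lowest mutant mean, 77.6 scaled counts. Olfr982, which is not among them, had a mean of 80.0 ± 10.1 and read 69.1, 79.2, 91.8, 91.0, 68.5 and 80.5, above background in 6 of 6 mutants. The next gene, Olfr923, had a mean of 51.0 ± 7.44 and was also above background in 6 of 6. At the stricter limit of mean plus 3 SD of the negative controls, 5 deleted genes were above it in every mutant mouse. Among the 33 other deleted genes, 4 were above background in 1 to 5 mutants (Olfr901, Olfr914, Olfr981 and Olfr969) and 27 in none, and Olfr930 was the lowest at 9.32 ± 2.35. Olfr982 kept 12.7% of its wild-type mean of 631 ± 36.7.

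The residual readings were several times the mean of the negative controls of the same lanes. In scaled counts the fold over that mean was 3.47 for Olfr902, 3.62 for Olfr917, 4.06 for Olfr958 and 4.99 for Olfr906. The highest negative control of a mutant lane read 31.1 to 44.4. The weakest positive control, POS_F, read 66.5 to 101 in the same lanes, and the next, POS_E, 111 to 146. Olfr902, Olfr917 and Olfr958 thus read in the range of POS_F, and Olfr906 between the means of POS_F (76.3) and POS_E (124). None of the 518 OR genes outside the cluster had a mutant mean below that of Olfr906, and the lowest was Olfr513 at 119.

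Deleted genes of low wild-type level differed in their reading in the mutants. Among the 6 deleted genes of lowest wild-type level, Olfr902, Olfr906 and Olfr917 were above background in every mutant, which is what they were chosen for. The other members of this group, Olfr916, Olfr149 and Olfr893, were above it in none, and their mutant means of 21.0, 14.5 and 23.2 scaled counts lay around the negative control mean of 22.4. Outside this group, Olfr958, Olfr982 and Olfr923 were above background in every mutant, with wild-type means of 1322, 631 and 1774 scaled counts. Spearman's rho of wild-type and mutant means was -0.04 over all 37 deleted genes and 0.14 over the 33 other deleted genes. These values are a description, and whether wild-type level and residual reading go together was not tested. All 37 deleted genes had every mutant below every wild-type mouse, against 7.21% of all 555 OR genes on the cartridge and 0.579% of those outside the cluster.

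**Figure D2:**
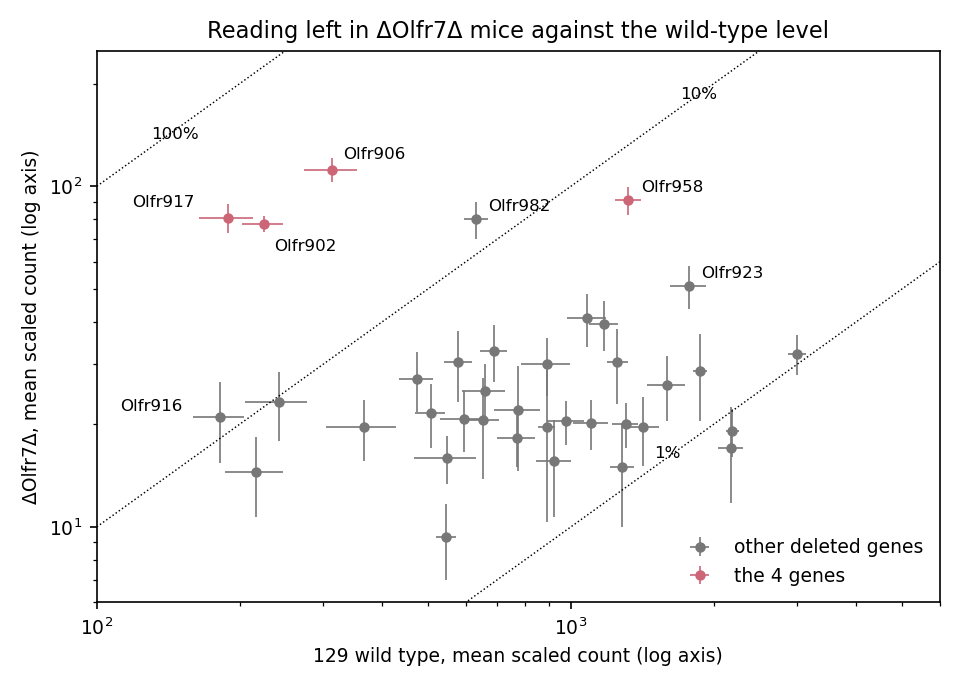
Mean scaled count in 6 ΔOlfr7Δ mice (vertical, log axis) against 6 wild-type 129 mice (horizontal, log axis) for the 37 deleted genes. Bars are SD and dotted lines mark 100%, 10% and 1% of the wild-type mean. Olfr902, Olfr906 and Olfr917 lie between the 10% and 100% lines, with only Olfr982 and, just above the 10% line, Olfr916 among the other genes there, and Olfr958 lies below the 10% line at a high wild-type level.

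The background subtraction changes what remains. After the lane background was subtracted from the scaled counts, Olfr906 kept 70.8 ± 14.4 counts in mutants against 265 ± 44.0 in wild type, or 26.7%. Olfr917 kept 28.5%, Olfr902 20.7% and Olfr958 3.92%. Olfr916 fell below 1 count in every mutant lane. With the lane mean of the negative controls subtracted in place of mean plus 2 SD, the shares were 30.9% for Olfr906, 35.7% for Olfr917, 27.5% for Olfr902 and 5.28% for Olfr958. The source of the reading that remains was not tested.

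The levels of the 4 genes in the other 24 mice, where the cluster is present, were not used to choose them. They were compared with all 30 lanes scaled together, on which the MK38 values are 0.926 times those above. No mouse that keeps the cluster came down to the residual reading. The lowest such mouse read 2.22 times the highest mutant for Olfr902, 1.87 times for Olfr906, 1.75 times for Olfr917 and 9.99 times for Olfr958. The mutant readings in these ratios are those by which the 4 genes were chosen. Other deleted genes were separated too, by 5.08 times for Olfr916, 5.65 for Olfr893, 19.0 for Olfr905, 5.80 for Olfr982 and 4.75 for Olfr149. The remaining deleted genes were not compared on this scale.

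The levels of Olfr906, Olfr917 and Olfr958 varied little among these 4 groups beside those of Olfr902. Olfr906 averaged 290 ± 36.9 scaled counts in 129 wild type, 258 ± 36.0 in MK29 wild type, 259 ± 18.5 in ΔHxΔP and 278 ± 10.2 in MK37 wild type (SD, n = 6 each), with overlapping ranges. Olfr917 averaged 175 ± 23.1, 178 ± 26.8, 193 ± 29.5 and 201 ± 19.2 in the same order, again with overlapping ranges. Olfr958 averaged 1224 ± 78.0, 1041 ± 106, 1072 ± 155 and 1128 ± 79.5, highest in 129 wild type. The residual reading of the mutants amounted to 40.1% of the MK29 wild-type mean for Olfr906, 42.1% for Olfr917 and 8.08% for Olfr958.

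Olfr902 was different and varied strongly among mice of mixed background. It read 195, 215, 212, 239, 213 and 178 scaled counts in 129 wild type and 572, 480, 754, 538, 524 and 642 in MK37 wild type, without overlap. In MK29 wild type it read 174, 166, 223, 211, 252 and 399, and in ΔHxΔP 501, 715, 736, 448, 225 and 261. MK29 wild-type mouse 6 stood above the other 5, and ΔHxΔP mice 5 and 6 below the other 4. The order of the group means was 209 ± 20.7 (129 wild type), 237 ± 85.4 (MK29 wild type), 481 ± 217 (ΔHxΔP) and 585 ± 99.1 (MK37 wild type), and the neighbours in this order overlapped in range. Against such levels the residual reading in ΔOlfr7Δ mice was 9.53% of the highest MK37 mouse and 43.3% of the lowest MK29 wild-type mouse.

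**Figure D3:**
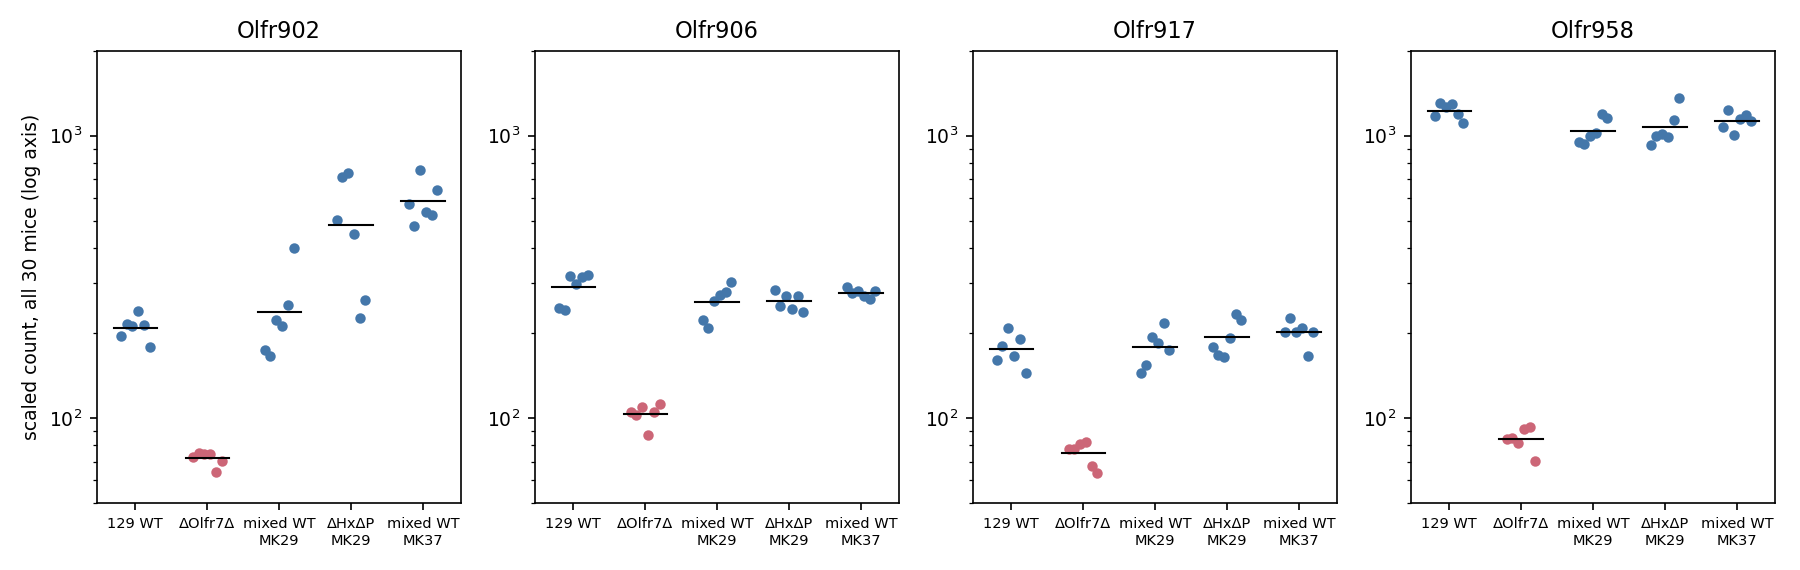
Scaled counts of Olfr902, Olfr906, Olfr917 and Olfr958 in each mouse of the 5 groups (vertical, log axis, all 30 lanes scaled together). Points are mice and lines are group means of 6 mice. The ΔOlfr7Δ mice lie below every other mouse in all 4 plots, and Olfr902 spreads from 166 to 754 among mice of mixed background.

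The tests on these levels were fitted with limma on log2(scaled count + 1) across all informative OR genes, meaning those whose median in wild-type mice reached 100 background-subtracted counts, with Benjamini-Hochberg adjustment over all of them. The 3 comparisons share the mixed wild-type mice and are not independent. In MK37 against MK29 wild type, 1 of the 4 genes passed an adjusted p of 0.05, against 40.0% of 555 OR genes (29.2% higher and 10.8% lower in MK37). Olfr902 was higher in MK37 by 1.35 ± 0.17 on the log2 scale (SE), with adjusted p = 1.9e-05, and all 6 MK37 mice lay above all 6 MK29 mice. For the others the log2 difference and its 95% interval were 0.12 (-0.09 to 0.32) for Olfr906, 0.18 (-0.06 to 0.42) for Olfr917 and 0.12 (-0.04 to 0.28) for Olfr958. Cartridge and colony cannot be told apart in this comparison.

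In 129 wild type against the 12 mixed wild-type mice, 2 of the 4 genes passed, against 70.7% of 547 OR genes (33.5% higher and 37.3% lower in 129). Olfr902 was lower in 129 by 0.80 on the log2 scale (log2 difference -0.80 ± 0.29 SE, adjusted p = 0.0179 by limma). This rested on MK37: against MK37 wild type alone the difference was -1.47 with adjusted p = 2.9e-10, and against MK29 wild type alone it was -0.13 with adjusted p = 0.488 (interval -0.46 to 0.21). Olfr958 was higher in 129 by 0.18 ± 0.06 (SE, adjusted p = 0.0189 by limma), by 0.24 against MK29 alone (adjusted p = 0.00479) and by 0.12 against MK37 alone (adjusted p = 0.0964). Its call was lost with the positive controls alone as scale (0.11, adjusted p = 0.233) and without 129 wild-type mouse 2 (adjusted p = 0.0508) or mouse 4 (adjusted p = 0.0502). Olfr906 and Olfr917 differed by 0.11 (-0.07 to 0.30) and -0.11 (-0.32 to 0.10). Strain and cartridge cannot be told apart here.

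In ΔHxΔP against the 12 wild-type mice, none of the 4 genes passed, against 34.2% of 555 OR genes (57 of them, or 10.3%, higher and 133 lower in ΔHxΔP). None had an unadjusted limma p under 0.05, which 44.7% of the 555 genes had. Olfr906 differed by -0.04 (-0.21 to 0.13), Olfr917 by 0.03 (-0.19 to 0.25), Olfr958 by -0.02 (-0.19 to 0.15) and Olfr902 by 0.27 (-0.44 to 0.97). Without each mouse in turn the value of Olfr902 ran from 0.12 (without ΔHxΔP mouse 3) to 0.46 (without ΔHxΔP mouse 5), and it passed in none of these fits. For Olfr902 the choice of wild type decided the result. Against the 6 wild-type mice of the same cartridge it was higher in ΔHxΔP by 0.94 ± 0.28 (SE, adjusted p = 0.0188 by limma). With cartridge as a covariate it was higher by 0.94 with adjusted p = 0.00722. This is the same contrast with MK29 wild type and no separate support, since MK37 held wild-type mice only. In the fits with MK29 wild type only and with the covariate, 26.8% and 32.6% of all OR genes passed. The ranges of these groups overlapped, since 2 ΔHxΔP mice read 225 and 261.

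The genes with the pattern most like each of the 4 were ranked by Pearson's r of log2 scaled counts over the 24 mice that keep the cluster, among 548 OR genes. For Olfr902 they were Olfr893 (r = 0.96), Olfr916 (0.95) and Olfr149 (0.85), all of the same cluster (37 of 555 OR genes on MK38). When each group's mean was removed first, r was 0.94, 0.94 and 0.77. Olfr916 read 199 to 333 scaled counts in 5 MK29 wild-type mice and 853 in mouse 6, the one in which Olfr902 was also highest, and read 1305 to 1622 in MK37. Olfr893 read 676 in that same mouse and 173 to 245 in the other 5. These values are given as a description, and the mice share cartridges and background.

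Olfr917 did not vary with its neighbour. Its r with Olfr916 was 0.27 over the 24 mice, rank 240 of 548, and -0.28 within groups. Olfr916 ranged from 135 to 1622 scaled counts in these mice and Olfr917 from 144 to 234, so the similar probes gave separate patterns with the genes present as well as in their absence. The genes most like Olfr917 were Olfr1102 (0.77), Olfr218 (0.71) and Olfr430 (0.71). For Olfr958 they were Olfr669 (0.85), Olfr64 (0.82) and Olfr481 (0.82), and for Olfr906 Olfr459 (0.61), Olfr1019 (0.59) and Olfr267 (0.56). None of these 9 genes belongs to the Olfr7 cluster, but the cluster gave only 37 of the 555 OR genes on MK38, so this says little. Olfr905, the MOR167 mate and measured neighbour of Olfr906, ranked 89th with r = 0.37, and its group means ran from 514 ± 121 in MK29 wild type to 996 ± 149 in ΔHxΔP, where Olfr906 had 258 and 259.

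**Figure D4:**
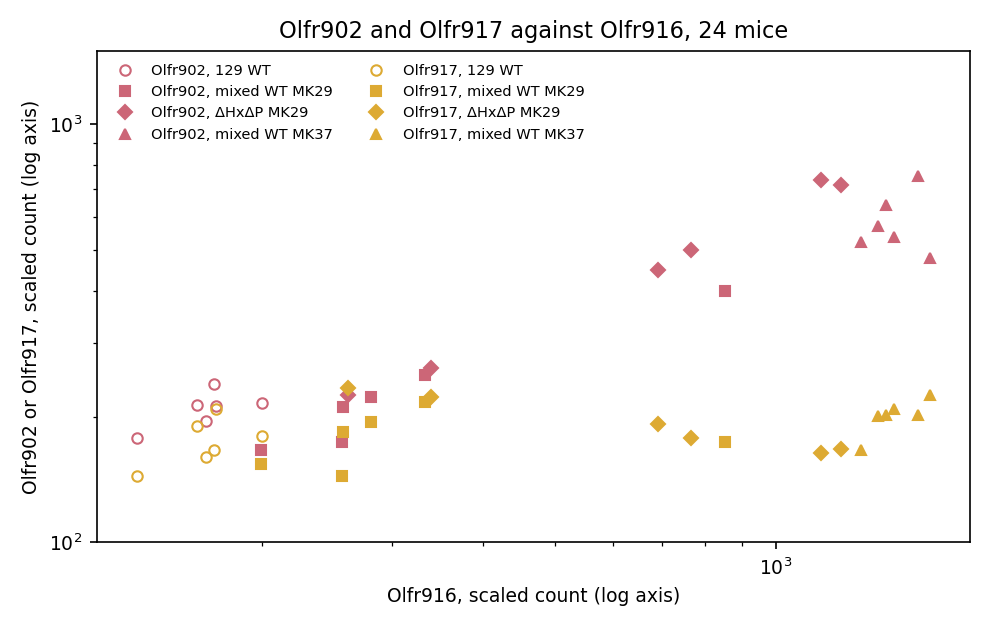
Scaled counts of Olfr902 and Olfr917 (vertical, log axis) against Olfr916 (horizontal, log axis) in the 24 mice that keep the cluster, with 1 point per mouse and gene and symbols for the groups. Olfr902 is higher in mice with high Olfr916 (r = 0.95), while Olfr917 stays between 144 and 234 across the range of Olfr916.

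A residual reading bears on fold changes if it is also part of the reading where the gene is present, which was not tested. If each gene's mean in ΔOlfr7Δ mice were subtracted from all mice, a setting chosen after seeing the data, the level of Olfr902 in MK37 relative to 129 wild type would change from 2.80 to 3.75 times, that of Olfr917 from 1.15 to 1.26 times and that of Olfr906 from 0.957 to 0.932 times. For Olfr958 it would change from 0.922 to 0.916 times. For MK37 the subtraction thus moved the ratio most for Olfr902, which had both a high residual share and a large difference between these groups. For MK29 wild type relative to 129 wild type, the ratio of Olfr902 would change from 1.14 to 1.21 times. That of Olfr906 would change from 0.888 to 0.826 times there.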

How the data were processed

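The authors deposited NanoString readings as raw counts per probe and lane, before any normalization, with no genome build named and empty cells where a probe was not read. Python 3.11.15, R 4.3.3 and limma 3.58.1 were used. Following the methods of the study, lanes of a comparison were scaled by the geometric mean of 6 positive controls and then of 5 reference genes, and background was the mean + 2 SD of 8 negative controls. MK38 lanes were scaled alone for the residual readings and all 30 lanes together for levels in 5 groups. Tests used limma (lmFit, eBayes with trend) on log2(scaled count + 1) over informative genes. They were also run on simulated counts, with the outcome not reported here. Those counts were drawn separately for each gene and hold no genes that vary together as Olfr902, Olfr893 and Olfr916 do. Each mouse was 1 replicate, and no replicates agreed within sampling noise. Counts cover counting error only. Probes were compared as deposited. A test of raw counts by edgeR was not run, and identity between proteins was not analysed here. Named were the 4 genes, the 3 highest and the lowest of the other deleted genes (Olfr982, Olfr923, Olfr901 and Olfr930), family mates, measured neighbours and the 3 genes most alike in pattern. Further genes were named after their values were seen. The genes and lists were chosen with earlier results of these data known.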

Additional observations from a re-analysis of the deposited data

Results flagged for a closer look

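In groups of 6 mice, the highest and lowest mouse was compared with the other 5 for each of the 4 genes in each of the 5 groups, 20 sets in all, of which about 1 in 20 would be marked by chance. In 1 set a mouse stood apart: wild-type mouse 6 of MK29 read 399 scaled counts for Olfr902, and the other 5 read 166 to 252. Its gap to the nearest mouse was 0.633 of the range of the group. Olfr893 and Olfr916 were also highest in this mouse, at 676 and 853 scaled counts. Without it, the log2 difference of Olfr902 between MK37 and MK29 wild type was 1.51.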

How the results depend on the processing

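With positive controls alone as scale, the share that remained in ΔOlfr7Δ mice was 39.0% for Olfr902, 40.3% for Olfr906, 48.3% for Olfr917 and 7.77% for Olfr958. With the median of ratios over OR genes outside the cluster it was 32.4% for Olfr902, and the other 3 genes moved by less than 1 SD. With the mean of the negative controls subtracted it was 27.5%, 30.9%, 35.7% and 5.28%. The 4 genes stayed above background in all mutants at the limits tried, and they were chosen for this reading. A scale multiplies a gene and its lane's background by the same factor. The choice of scale, raw counts included, therefore could not change this result. Without each mouse in turn the shares were 33.4 to 35.5%, 34.5 to 36.7%, 41.4 to 44.6% and 6.73 to 7.10%. In ΔHxΔP, 57 OR genes were higher and 133 lower, or 118 and 108 with the median of ratios. In MK37 against MK29, 162 were higher and 60 lower, or 215 and 32 with positive controls alone and 112 and 110 with the median of ratios. In 129 against mixed wild type, 183 were higher and 204 lower, or 130 and 219 with positive controls alone.

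For ΔHxΔP, 1 of the 4 genes (Olfr902) was called with MK29 wild type only and with cartridge as a covariate, where 26.8% and 32.6% of all OR genes were called. Both settings contrast ΔHxΔP with MK29 wild type. The log2 differences of Olfr906 and Olfr958 there, not called in any setting, changed sign or came to 0: they were 0.00 and 0.02 with positive controls alone, 0.03 and 0.05 with the median of ratios, and 0.02 and 0.04 with either MK29 wild type only or cartridge as a covariate. Without each mouse in turn Olfr902 ran from 0.12 to 0.46, Olfr917 from -0.03 to 0.07 and Olfr958 from -0.09 to 0.02. For 129 against mixed wild type, 1 gene in place of 2 was called with positive controls alone (Olfr902, with 63.7% of all OR genes called), against MK29 alone (Olfr958, 75.4%) and against MK37 alone (Olfr902, 74.2%), and 1 to 2 without each mouse in turn. The cause of these changes was not tested. The pseudocount of 10, no filter, background subtraction and sex as a covariate changed no call of the 4 genes. The edgeR test was not run. No paired analysis was possible because the groups share no replicate numbers that tie mice together. Readings near the negative controls limit what can be said of deleted genes in the mutants.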
